A study of Caenorhabditis elegans with 24 samples.

Results

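The response of wild-type *Caenorhabditis elegans* (strain N2) to 6 h of 5 mM cobalt chloride (CoCl2) was measured on 3 of the 24 two-colour Agilent whole-genome arrays of the series, namely every array that set CoCl2-treated N2 against untreated N2 at that time. On each array, RNA of CoCl2-treated animals was hybridised together with RNA of control animals that received 0 mM CoCl2 for the same 6 h. Both RNAs came from whole worms, in populations synchronized by hypochlorite treatment and collected as early day 1 adults, and the animals carried no transgene or mutation. The remaining arrays covered the deletion mutant *pqm-1(ok485)*, which lacks a zinc finger transcription factor, the same contrasts after 20 h, and direct comparisons of the mutant with wild type. The study's methods speak of biological replicates for the arrays between strains and do not repeat the words for CoCl2 against control. The labels give a replicate number alone. Each p-value of the 6 h response therefore measures spread between arrays that may be partly technical. That spread was estimated over all 12 arrays of 6 h, those of the mutant included, while each SD is of the 3 wild-type arrays. Because whole animals were used, fewer cells of a type and less RNA per cell cannot be told apart.

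Cobalt ions stabilize the hypoxia-inducible factor HIF-1 by blocking the prolyl hydroxylase EGL-9, which normally marks HIF-1 for destruction through the VHL-1 ubiquitin ligase, and cobalt is for this reason used as a chemical mimic of low oxygen. Cobalt is also a heavy metal, and in worms heavy metals are known to induce heat shock proteins, metal-binding proteins and enzymes that conjugate and export toxic compounds, largely in the intestine. The comparison addresses which transcripts an otherwise normal animal raises or lowers in the first hours of exposure.

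On the 3 arrays 87.6%, 87.1% and 85.7% of probes lay above background in at least 1 channel, and 283 to 357 probes were saturated. CoCl2 RNA was in the red (Cy5) channel on replicates 1 and 2 and in the green (Cy3) channel on replicate 3, as the strain and treatment fields of the labels give it. The source names of 11 of the 24 arrays, replicate 3 among them, give the opposite dyes. The fields were followed, and the deposited series table ran in their direction on all 24 arrays. With the dyes of the source names no gene passed the limma test, although 622 genes were higher and 814 lower at an unadjusted p below 0.05. All 3 arrays lay on 1 slide that held no other comparison at 6 h, so slide and comparison cannot be told apart at that time. Sperm transcripts also varied between replicates in a way the groups do not explain. The 17 sperm markers had a median log2 ratio of -0.39, 1.15 and 0.00 on replicates 1, 2 and 3, and replicate 2 was above both others for 17 of them.

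CoCl2 changed 937 of 22066 genes tested (4.25%) at a limma adjusted p below 0.01. Of these, 567 (2.57% of genes tested) were upregulated and 370 (1.68%) were downregulated, and each of the 937 had the same sign on the 3 arrays. The counts of called genes in each gene group below are to be set against these shares. Upregulation ran to larger sizes than downregulation. At least 2-fold changes were seen for 245 genes that rose and 77 that fell, at least 4-fold changes for 85 and 2 genes, and 35 genes rose at least 8-fold. The median log2 ratio (CoCl2 over control) was 0.91 for the genes that rose, -0.67 for the genes that fell and -0.00035 for all genes tested, while the median SD between arrays was 0.15, 0.14 and 0.11. Left out in turn, replicates 1, 2 and 3 left 437, 390 and 403 genes that rose and 188, 173 and 259 that fell. With arrays centred on the median in place of loess, 204 rose and 84 fell. Genes that fell had a median control signal of 9.87 (log2 intensity), against 8.70 for genes that rose and 7.72 for all genes. Among the 5 genes with the highest ratios were a glutathione S-transferase, 2 small heat shock proteins, an acyltransferase and a metal-response gene, each described below with its own group.

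**Figure D1:**
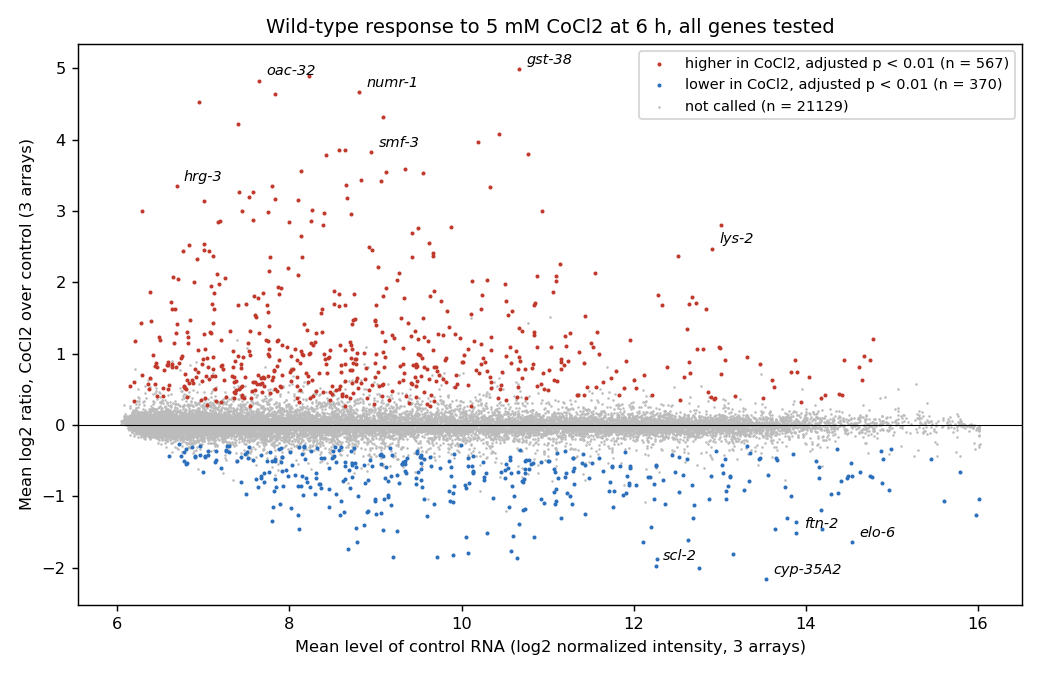
Mean log2 ratio of CoCl2 over control RNA in wild type at 6 h (y axis) against the mean level of control RNA (x axis, log2 normalized intensity, 3 arrays), 1 point per gene tested, with the 567 genes that rose in red and the 370 that fell in blue. The genes that rose reach a log2 ratio of 4.98, and 2 of those that fell lie below -2.

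The heat shock response was large in few genes. The *hsp-16* genes encode small heat shock proteins that bind unfolding proteins, and 4 of the 6 measured rose (median log2 ratio of the list 4.38, against -0.00035 for all genes tested). *hsp-16.48* had log2 ratios of 5.28, 4.05 and 5.36 on the 3 arrays, with a mean of 4.90 ± 0.74 (SD, n = 3, adjusted p = 8.68e-08), a 29.8-fold higher level in CoCl2 than in control animals. *hsp-16.1* averaged 4.63, *hsp-16.2* 4.53 and *hsp-16.41* 4.23. Their paired copies in the genome are nearly identical in sequence, so a probe may read more than 1 of them. Replicate 2 gave the lowest ratio for each of these 4 genes, yet the lowest of the 12 values was 3.80. Among HSP70 and HSP90 genes and their partners, 3 of 18 rose. The inducible HSP70 genes *F44E5.5* (4.14, 3.34 and 4.09) and *hsp-70* (3.47, 2.81 and 3.19) rose on all arrays with means of 3.86 and 3.16, and *unc-23*, a BAG-type HSP70 cochaperone, had a mean of 0.40 and lost its call without replicate 1 or 2 (0.34 to 0.46). *hsp-17* was the single one of 10 other small heat shock proteins that rose (2.26 ± 0.17). The constitutive *hsp-1*, an HSC70, had a log2 ratio of 0.04 and did not pass the test. None of 25 genes of the endoplasmic reticulum unfolded protein response, 15 of the mitochondrial one, 8 CCT chaperonin subunits or 32 proteasome subunits passed the limma test. The ER chaperone *hsp-4* had a log2 ratio of 0.15, and the mitochondrial chaperone *hsp-6* -0.05.

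**Figure D2:**
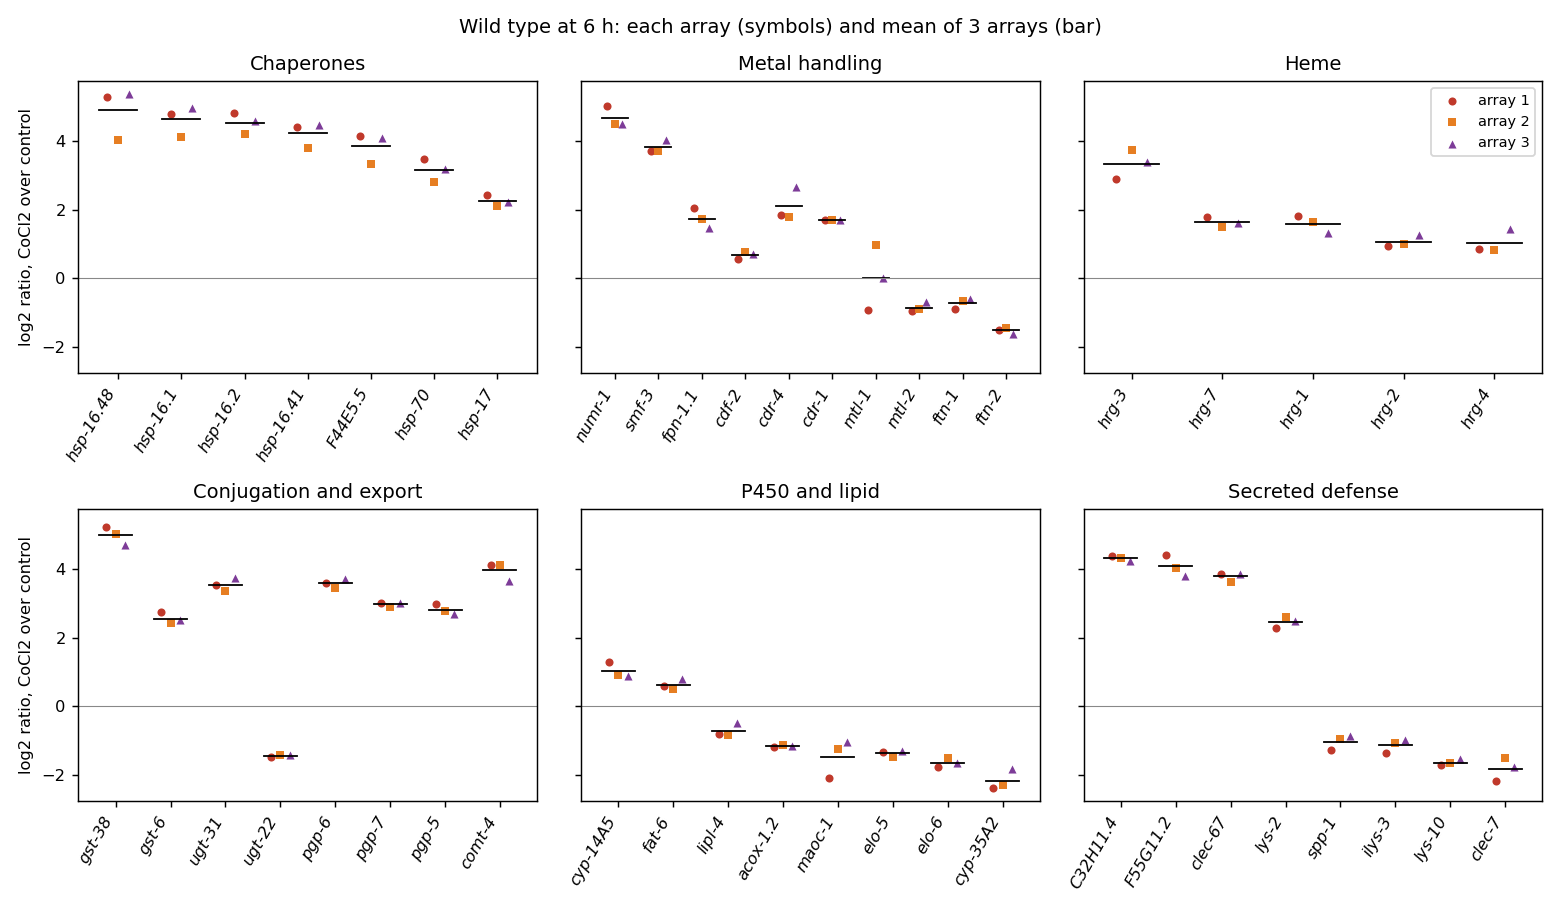
Log2 ratio of CoCl2-treated over control animals (y axis) for named genes on each of the 3 wild-type arrays of 6 h (symbols) with their mean (bar), in 6 groups by function. The 3 values of most genes lie close together, and those of *mtl-1* run between -0.92 and 0.97.

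Genes of metal handling moved in both directions. The nuclear metal-response gene *numr-1* had log2 ratios of 5.01, 4.49 and 4.50 (mean 4.67, adjusted p = 1.15e-09). Of the 5 cadmium-responsive *cdr* genes, 3 rose, *cdr-4* (2.09), *cdr-1* (1.70) and *cdr-2* (0.90), and *cdr-6* had a mean of -0.45, a fall that lost its call without replicate 2 (-0.41). *smf-3*, a divalent metal importer of the NRAMP family in the intestine, reached 3.72, 3.72 and 4.03, a mean of 3.82 and a 14.1-fold higher level, whereas the related importers *smf-1* and *smf-2* had means of -0.10 and 0.01 and did not pass the test. *fpn-1.1*, a ferroportin-type iron exporter, also rose (2.04, 1.72 and 1.46, mean 1.74). The iron storage protein ferritin went the other way. *ftn-2* fell on each array, at -1.51, -1.43 and -1.61, with a mean of -1.52 ± 0.09 (adjusted p = 1.41e-08) and a 2.86-fold lower level in CoCl2 animals. *ftn-1* had -0.91, -0.66 and -0.59 (adjusted p = 0.00434), and its call was lost without any 1 of the arrays (-0.78 to -0.63). Over the iron and divalent metal list, 3 of 31 rose and 3 fell. The 2 metallothioneins, cysteine-rich metal-binding proteins, did not rise. *mtl-2* fell (-0.96, -0.90 and -0.69, adjusted p = 1.40e-04). *mtl-1* had -0.92, 0.97 and -0.00, so its replicates fell on both sides of 0 with an SD of 0.95, and replicate 2, the array with the highest sperm-marker ratios, was its highest. Their relation was not tested.

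Heme-responsive genes were called higher in 5 of 11 cases and lower in none (median 0.09). Of the 11, 4 had ratios below 0 on all 3 arrays, and the lowest mean was -0.53. Worms cannot make heme and take it up from food, and the *hrg* genes include its transporters. *hrg-3*, which in worms carries heme from the mother's intestine to the embryos, had log2 ratios of 2.91, 3.74 and 3.39 and a mean of 3.35 ± 0.42 (adjusted p = 6.10e-07), which is 10.2-fold. The secreted protein gene *hrg-7*, which signals heme status between tissues (1.78, 1.49 and 1.62), and the intestinal heme transporter *hrg-1* (1.82, 1.65 and 1.31) rose to means of 1.63 and 1.59. *hrg-2* averaged 1.06 and the heme importer *hrg-4* 1.04, and both calls were lost without any 1 of the arrays (0.97 to 1.13 and 0.83 to 1.15). The lowest of the 15 values of these 5 genes was 0.81. In *pqm-1(ok485)* animals on the same treatment the ratios of CoCl2 over control of the 5 genes were lower. These ratios are taken within each strain, so they do not give the level in the mutant against that in wild type. *hrg-7* had -1.81, -1.96 and -2.06 there and *hrg-1* -0.85, -0.95 and -0.94. For *hrg-4* the values were -1.88, -2.05 and -1.17 and for *hrg-2* -0.80, -1.39 and -0.78. *hrg-3* had 0.35, -0.01 and 0.18 in the mutant. The differences of wild type minus mutant were 3.57 for *hrg-7* (adjusted p = 3.49e-05), 3.17 for *hrg-3* (1.16e-04), 2.74 for *hrg-4* (1.33e-04), 2.51 for *hrg-1* (7.71e-06) and 2.06 for *hrg-2* (6.66e-04). Across all genes tested, 373 (1.69%) differed between the 2 strains in this way.

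Of 17 genes of the HIF-1 pathway and its targets, 5 rose (29.4%, against 2.57% of all genes) and none fell (median 0.06). The largest ratio of the list was that of the glutathione S-transferase *gst-19*, with a mean of 3.20. *rips-1*, a methyltransferase-like gene induced through HIF-1 under hydrogen sulfide and low oxygen, had 1.27, 1.43 and 1.24 (mean 1.31), and *F22B5.4* averaged 1.29. The nuclear receptor *nhr-57*, a classic HIF-1 target, averaged 0.92 and lost its call without replicate 2, and the sulfur dioxygenase *ethe-1* averaged 0.53 and lost it without any 1 array (0.83 to 1.03 and 0.44 to 0.57). Targets and regulators were both among the members that did not pass the test. The sulfide oxidoreductase target *sqrd-1* had a mean of -0.18 and the cysteine synthase-like target *cysl-2* 0.06, while *hif-1* had -0.08, *egl-9* 0.06 and *vhl-1* -0.11. These are transcript levels, and HIF-1 protein was not measured here.

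Glutathione S-transferases, which attach glutathione to reactive compounds, rose in 13 of 46 cases and fell in 1 (median 0.16). *gst-38* had the highest mean ratio of all genes matched to a name, with 5.23, 5.02 and 4.71 on the arrays, a mean of 4.98 ± 0.26 (adjusted p = 7.58e-10) and a 31.7-fold higher level. *gst-19* averaged 3.20, *gst-6* 2.56 and *gst-30* 1.88, and *gst-26* was the one that fell (-0.67). In the list of glutathione synthesis and hydrogen sulfide handling, 5 of 20 rose and none fell (median -0.02). Of these, *gcs-1* (0.60), whose product catalyses the limiting step of glutathione synthesis, and glutathione reductase *gsr-1* (0.86) are glutathione genes, while *cysl-3* (0.87), *ethe-1* (0.53) and *cth-2* (0.41), a cystathionine gamma-lyase, act on cysteine or sulfide. The call of *cth-2* was lost without any 1 array (0.38 to 0.45), as was that of *ethe-1* (0.44 to 0.57). UDP-glucuronosyltransferases, which add sugar groups, moved both ways, with 11 of 66 up and 7 down. *ugt-31* had 3.53, 3.36 and 3.74 and *ugt-22* -1.47, -1.40 and -1.43. *ugt-18* rose with wider spread (1.48, 2.45 and 3.06). ABC transporters, which pump compounds out of cells, rose in 7 of 50 cases and fell in 2. The P-glycoprotein genes *pgp-5*, *pgp-6* and *pgp-7* averaged 2.81, 3.59 and 2.98, with 3.60, 3.44 and 3.72 for *pgp-6*. Among 41 O-acyltransferase genes, 5 rose and none fell, led by *oac-32* at 4.88, 4.88 and 4.72 (mean 4.83 ± 0.09, adjusted p = 2.06e-10).

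Cytochromes P450, which oxidize lipophilic compounds, were downregulated in 25 of 71 cases and upregulated in 2 (35.2% and 2.8% of the list, against 1.68% and 2.57% of all genes), with a median of -0.13. *cyp-35A2*, an intestinal P450 known to respond to foreign compounds, fell most, with -2.38, -2.29 and -1.82 and a mean of -2.16 ± 0.30 (adjusted p = 1.87e-08), 4.47-fold lower in CoCl2 animals. *cyp-29A4* averaged -1.73, *cyp-35C1* -1.63 and *cyp-25A2* -1.60, and the 2 that rose were *cyp-14A5* (1.04) and *cyp-33C7* (0.68). Short-chain dehydrogenases of the *dhs* family were called lower in 8 of 29 cases and higher in 1 (median -0.02). *dhs-25* had -1.84, -1.85 and -1.71, *dhs-20* averaged -1.76, and *dhs-9* was the one that rose (1.69). In the list of carboxylesterases and flavin monooxygenases, 5 of 38 fell and 2 rose. All 5 that fell were *cest* genes, which encode esterases, and those that rose were *cest-34* (0.59) and the monooxygenase *fmo-1* (0.43), whose calls were lost without any 1 array (0.53 to 0.62 and 0.38 to 0.52).

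**Figure D3:**
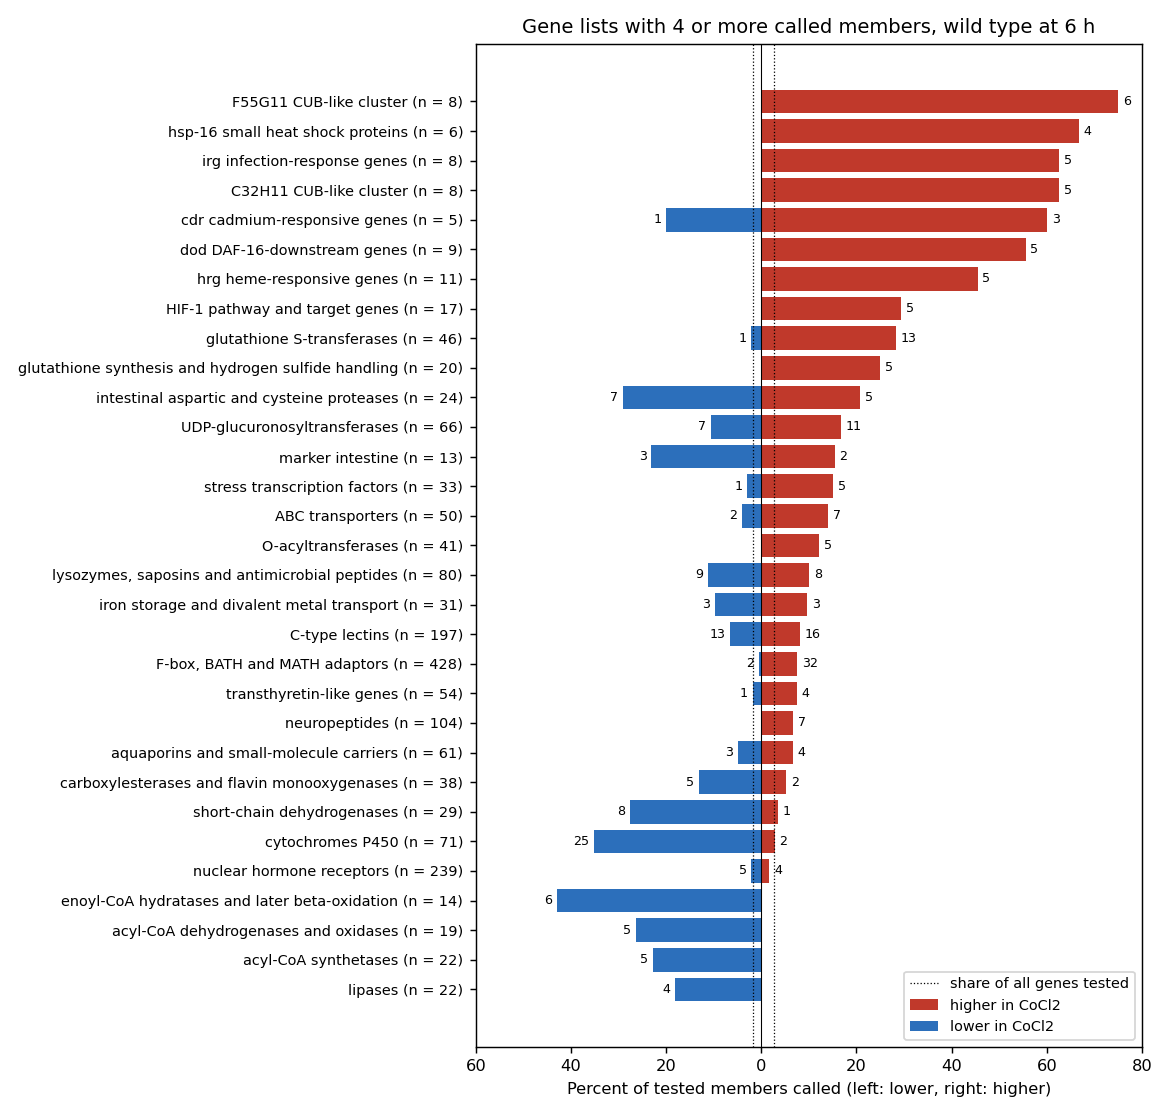
Percent of the measured members of each list that were called higher (right, red) or lower (left, blue) in CoCl2-treated animals at 6 h, for lists with 4 or more called members, with the number of called genes at each bar and the share of all genes tested as dotted lines. The P450 bar reaches furthest left among the enzyme families of drug metabolism, with 25 genes that fell and 2 that rose.

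In the lipid lists, the called genes fell with the exception of *fat-6*. Acyl-CoA synthetases, which activate fatty acids, fell in 5 of 22 cases and rose in none. Acyl-CoA dehydrogenases and oxidases, which start beta-oxidation, fell in 5 of 19, and enoyl-CoA hydratases and later enzymes in 6 of 14, again with none up. The medians of these 3 lists were -0.03, -0.13 and -0.26. *acox-1.2*, a peroxisomal acyl-CoA oxidase of ascaroside pheromone synthesis, had -1.17, -1.13 and -1.16 (mean -1.15 ± 0.02), and its neighbours *acox-1.1* and *acox-1.3* averaged -0.82 and -0.96. Neighbouring copies are alike in sequence, so their probes may share signal. The peroxisomal enzyme *maoc-1* had -2.09, -1.25 and -1.04, with replicate 1 lowest, and lost its call without that array (-1.14). Lipases fell in 4 of 22 cases, with *lips-14* at -1.46 and the lysosomal *lipl-5* at -0.78. Among 8 fatty acid elongases, which lengthen acyl chains, 3 fell. *elo-6* and *elo-5*, which in worms make branched-chain fatty acids, averaged -1.64 (-1.76, -1.51 and -1.65) and -1.36, and *elo-2* averaged -0.96. The desaturases gave other values. *fat-6*, a stearoyl-CoA desaturase, rose (0.59, 0.51 and 0.81), while its close relatives *fat-5* and *fat-7* had means of 0.08 and -0.21 and did not pass the test. Of the vitellogenin yolk proteins, 1 of 5 was called lower, and all 5 had ratios below 0 on each array (median -0.31). *lonp-2*, a peroxisomal protease, fell with -1.40, -1.05 and -1.07. Glycolysis and gluconeogenesis had 1 called gene of 21, the TCA and glyoxylate cycle none of 20 and the respiratory chain none of 43.

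At the lower end, *cyp-35A2* was followed by *F48D6.4* (-2.26, -1.75 and -1.99) and the SCP-like extracellular protein gene *scl-2* (-2.86, -1.45 and -1.61). Replicate 1 of *scl-2* lay apart from the others, and its call was lost without that array (-1.53). *T22B7.7* averaged -1.87, the claudin-like gene *clc-24* -1.86 and *Y48E1B.8* -1.79, and each was below -1.5 on all arrays. The claudin-like gene *clc-19* rose, with 3.29, 3.44 and 3.35.

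Secreted proteins linked to pathogen defence held many upregulated genes. The CUB-domain gene clusters *C32H11* and *F55G11* had 5 of 8 and 6 of 8 members up and none down. *C32H11.4* had 4.37, 4.33 and 4.25 and *F55G11.2* had 4.41, 4.04 and 3.80, with means of 4.32 and 4.08. Of 8 infection-response genes, 5 rose, with *irg-1* at 2.87 and *irg-2* at 2.85, and of 9 *dod* genes (downstream of the FOXO factor DAF-16) 5 rose, with *dod-24* at 3.99, 3.46 and 3.95. C-type lectins, sugar-binding proteins often secreted into the gut, went both ways in 29 of 197 cases, 16 up and 13 down. These were 8.12% and 6.60%, against 2.57% and 1.68% of all genes. *clec-67* (3.85, 3.64 and 3.87) and *clec-69* (3.51, 3.54 and 3.64) rose most in this family, and *clec-7* (-2.18, -1.51 and -1.77) fell most. Lysozymes, saposins and antimicrobial peptides also went both ways, 8 up and 9 down of 80. *lys-2* averaged 2.47 ± 0.16 (5.54-fold higher), whereas *lys-10* had -1.71, -1.66 and -1.54, a mean of -1.63 (3.11-fold lower). *lys-7* (-0.71), *ilys-3* (-1.13) and the saposin *spp-1* (-1.03) also fell.

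Many of the upregulated genes lie beside each other. Over 16504 adjacent pairs of measured protein-coding genes, both genes rose in 90 and both fell in 33, and in 20 pairs they moved in opposite directions. Of 519 upregulated genes with a known place, 28.1% had a neighbour that also rose, while 5.93% of all placed genes lay beside a gene that rose. Of 333 downregulated genes the share was 18.3%, against 3.91%. The longest run was 11 genes on chromosome IV, from *ZK896.5* through *K08D8* genes and *irg-6* to *C32H11.4*, with mean ratios between 0.35 and 4.32 and a median of 1.49. A run of 4 genes on chromosome IV, *C17H12.8*, *C17H12.6*, *H20E11.3* and *H20E11.2*, had ratios of 2.05 to 2.96. Another on chromosome II, *F01D5.1*, *F01D5.2*, *F01D5.3* and *F01D5.5*, had 1.44 to 1.69. Among the 5 runs of at least 3 genes that fell were *acox-1.1* to *acox-1.3* on chromosome I and *cyp-14A1* to *cyp-14A3* on the X chromosome, where the calls of *cyp-14A1* (-0.81 to -0.60) and *cyp-14A3* (-0.69 to -0.50) were lost without 1 array or another. By chromosome, 4.81% of genes on V and 3.87% on IV rose, against 1.1% on I. Neighbours in such runs are often copies of 1 gene, and the part of shared probe signal in these counts was not tested.

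**Figure D4:**
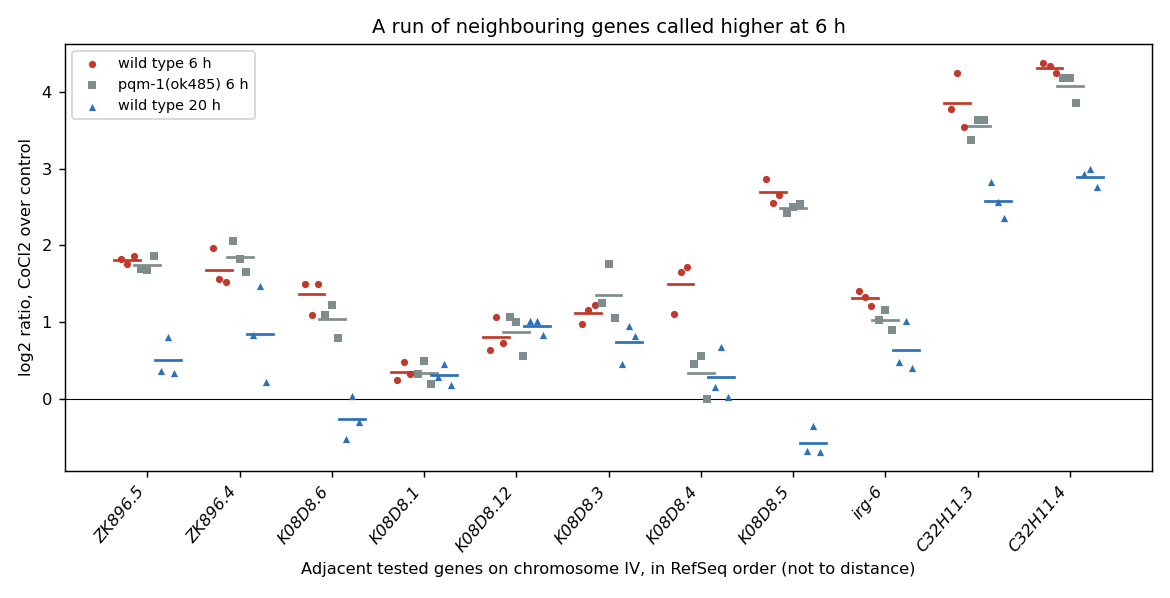
Log2 ratio of CoCl2 over control (y axis) for 11 adjacent genes on chromosome IV in their order along it, on each array (symbols) with the mean of 3 (bar), for wild type at 6 h (red), *pqm-1(ok485)* at 6 h (grey) and wild type at 20 h (blue). In wild type at 6 h every mean lies above 0, between 0.35 and 4.32, and at 20 h that of *K08D8.5* lies below 0.

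F-box, BATH and MATH proteins choose proteins for ubiquitination by ubiquitin ligases. In this list, the longest of all, 32 of 428 rose and 2 fell (7.48% and 0.467%, against 2.57% and 1.68% of all genes). *fbxa-163* had 3.07, 2.72 and 3.20, *fbxc-58* averaged 2.36 and *fbxa-37* 1.70. The cullin *cul-6* (1.51 ± 0.05) and the Skp1-related *skr-3* (1.06) and *skr-4* (0.81) rose as well. In worms they assemble with such adaptors in the response to intracellular pathogens. They were picked after their values had been seen, so their rise is a description. Of 28 *pals* genes, tied to the same response, 3 rose (10.7%).

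In the neuropeptide list 7 genes rose (6.73% of those measured, against 2.57% of all genes) and none fell, with *nlp-4* at 1.75, 1.54 and 1.80 and *nlp-25* at 1.18. Of the 7, the neighbours *nlp-34*, *nlp-31*, *nlp-30* and *nlp-29* encode antimicrobial peptides of the epidermis. They averaged between 0.59 and 0.68, and the calls of *nlp-34*, *nlp-31* and *nlp-29* were lost without 1 array or another (0.47 to 0.82 for *nlp-34*, 0.52 to 0.73 for *nlp-31* and 0.54 to 0.71 for *nlp-29*). Of 38 insulin-like peptides 2 rose (5.26%), *ins-19* (1.36, 1.66 and 1.87) and *ins-37* (0.74). Of 33 stress transcription factors, 5 rose and 1 fell (15.2% and 3.03%, against 2.57% and 1.68% of all genes). The bZIP factor *zip-10* had 1.80, 2.09 and 2.06, and *pqm-1* itself had 0.56, 0.95 and 0.81 and lost its call without replicate 2 or 3 (0.69 to 0.88). The bZIP factor *zip-2*, active in pathogen defence, averaged 0.67. The factors that direct the main stress programs did not pass the test, *hsf-1* at -0.07, *daf-16* at -0.03, *skn-1* at 0.20 and the HLH factor *hlh-30* at 0.02. Of 239 nuclear hormone receptors 4 rose and 5 fell, together 3.77%, against 4.25% of all genes.

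Intestinal proteases and carriers moved both ways. Of 24 aspartic and cysteine proteases, 5 rose and 7 fell. *asp-14* (2.37), *cpr-3* (2.03) and *asp-12* (1.63, 1.69 and 2.05) rose, while *asp-13* fell (-1.46). The amino acid transporter *aat-7* averaged 2.37, the proton-coupled inositol transporter *hmit-1.1* had 1.25, 1.32 and 1.60, and the aquaglyceroporin *aqp-1* fell (-1.11). None of 15 muscle, 8 pharynx, 10 hypodermis, 14 neuron, 14 germ line, 17 sperm or 14 embryo markers passed the test, whereas 2 of 13 intestine markers rose (*ifc-2* 0.57, *ifb-2* 0.38) and 3 fell (*vha-6* -0.46, *mtl-2* -0.85, *cpr-1* -1.03). The calls of *ifc-2* and *ifb-2* were lost without any 1 array (0.53 to 0.61 and 0.35 to 0.42), and that of *vha-6* without replicate 1 or 2 (-0.53 to -0.42). *cpr-1* was saturated in the control channel on 2 arrays. None of 65 cytosolic ribosomal proteins, 66 mitochondrial ribosomal proteins, 58 major sperm proteins, 44 histones or 34 meiosis and replication genes passed. The 3 reference genes for qPCR, *cdc-42*, *iscu-1* and *pmp-3*, had ratios of 0.14, 0.12 and -0.13, and none passed the test.

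Most genes called in wild type at 6 h had the same sign in the mutant and at 20 h. The mutant's arrays lay on other slides than those of wild type, so slide and strain cannot be told apart in this comparison. In the mutant CoCl2 RNA was in the red channel on replicate 3 alone, the reverse of wild type. Dye is therefore not balanced between the strains. Of the 567 genes that rose, 525 had the same sign in *pqm-1(ok485)* and 451 were called in the same direction there, and of the 370 that fell, 343 had the same sign and 254 were called. Of all genes tested, 6.03% were called higher and 4.83% lower in the mutant. The median ratio of the genes that rose was 0.91 in wild type and 1.01 in the mutant, and of those that fell -0.67 and -0.66. The difference itself passed the test for 157 of the 937 genes (16.8%), against 1.69% of all genes, but these genes were chosen by the wild-type values that enter the difference, so nothing is read from that share or from the one at 20 h. With median centring 25 genes of all tested differed, and with the replicate number as a block 228. Among the 157, 57 upregulated genes were larger in wild type and 36 smaller. The same choice of genes bears on these directions and on the medians, so nothing is read from them. Beside the *hrg* genes, the values of some other genes are given as examples. The neuropeptide gene *nlp-4* was at 1.75, 1.54 and 1.80 in wild type and 0.29, 0.11 and 0.09 in the mutant. *hmit-1.1* was at 1.25, 1.32 and 1.60 and at -0.12, 0.11 and -0.13. How many of all genes had arrays as far apart between strains was not counted, so nothing is read from such a gap. *lys-10* had -1.71, -1.66 and -1.54 in wild type and -0.47, -0.68 and -0.10 in the mutant. Of the 8 elongases, the 3 that fell in wild type differed between strains and the others did not pass that test. *elo-2* had -0.92, -1.02 and -0.94 in wild type and -2.77, -3.11 and -3.18 in the mutant, a difference of 2.06 (wild type minus mutant, adjusted p = 8.69e-05), and the differences of *elo-5* and *elo-6* were 1.66 and 1.59.

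Of the 20 h arrays, replicate 1 shared the slide of the 6 h arrays and replicates 2 and 3 did not. Replicate 3 at 20 h had 68.5% of probes above background, against 86.4% and 86.5% on replicates 1 and 2. At 20 h, 566 of the genes that rose at 6 h were measured and 493 kept the sign, with 410 called in the same direction and 25 in the opposite one. Of 368 measured genes that fell, 344 kept the sign and 298 were called. Of all genes of the 6 h test that were measured at 20 h, 11.3% were called higher and 9.02% lower at 20 h. The difference between times passed the test for 352 of 934 genes (37.7%), against 5.64% of all genes. Of the upregulated genes that differed, 143 were larger at 6 h and 89 smaller. Of the downregulated ones that differed, 26 were larger in size at 6 h and 94 smaller. Nothing is read from these directions either, as the genes were chosen by their values at 6 h. *oac-32* was at 4.88, 4.88 and 4.72 at 6 h and 0.44, 1.13 and 0.28 at 20 h (difference 4.21, adjusted p = 8.94e-10), and *smf-3* at 3.72, 3.72 and 4.03 and 2.02, 2.48 and 1.90 (difference 1.69). *K08D8.5*, in the long run on chromosome IV, had 2.87, 2.55 and 2.65 at 6 h and -0.68, -0.35 and -0.69 at 20 h, below 0 on each array at 20 h, the one on the shared slide included. The acyl-CoA synthetase *acs-2*, which feeds fatty acids to mitochondria, had -0.72, -0.96 and -0.94 at 6 h and 1.58, 1.89 and 1.53 at 20 h, and its call at 6 h was lost without any 1 array (-0.95 to -0.83). The ratio of *ins-19* was higher at 20 h, with 3.68, 3.83 and 2.52.

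**Figure D5:**
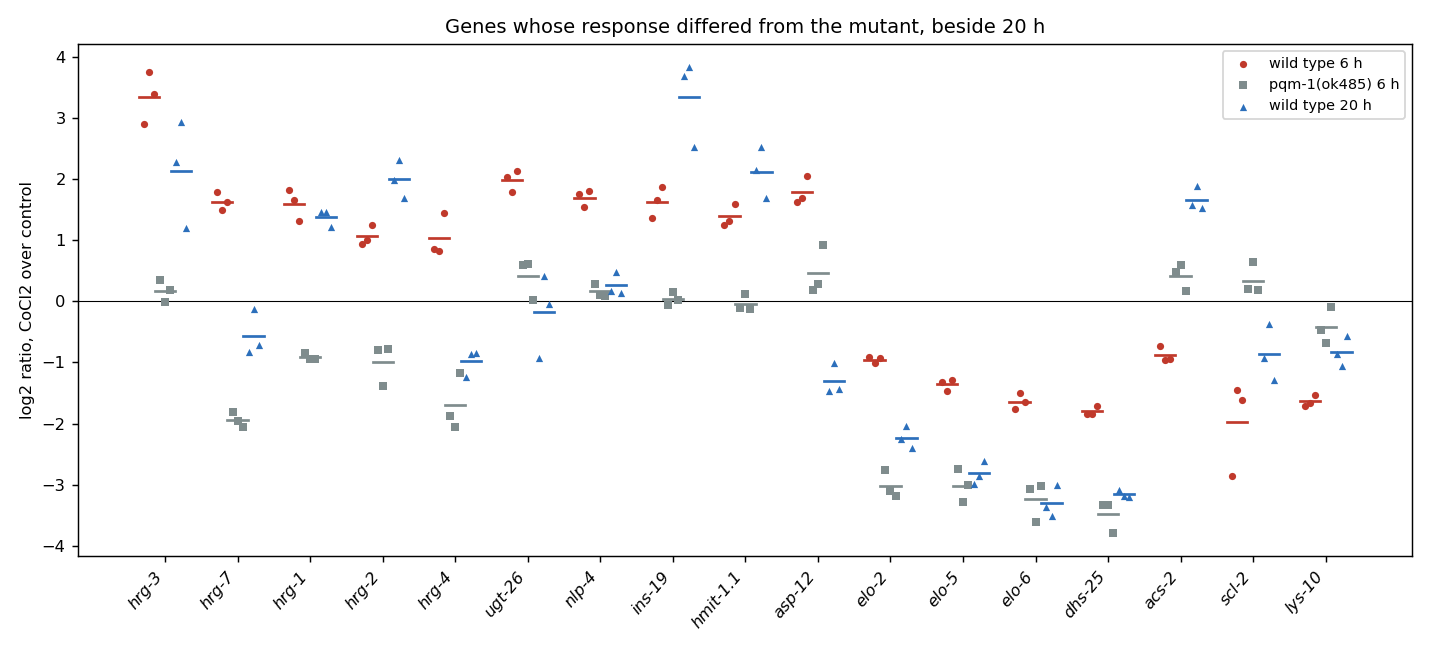
Log2 ratio of CoCl2 over control (y axis) on each array (symbols) with the mean of 3 (bar) for 17 genes whose ratio differed between strains, in wild type at 6 h (red), *pqm-1(ok485)* at 6 h (grey) and wild type at 20 h (blue). The 5 *hrg* genes lie above the mutant in wild type at 6 h, and *acs-2* and *lys-10* below it.

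The response can also be read from the 9 other arrays of 6 h, as the mutant's response joined to the comparisons of mutant with wild type in each condition. Whether these arrays share RNA extracts with the 3 direct ones is not given in the sources used here. On that path the genes that rose had a median ratio of 0.74 and those that fell -0.56, and 150 and 30 of them passed the test.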

How the data were processed

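The authors' deposited files hold the spot intensity of both dyes and the log10 ratio of red over green that Agilent Feature Extraction gave for each array, with 100 ng of total RNA amplified per channel; the deposited series table holds log2 ratios derived from it. In limma 3.58.1 (R 4.3.3), median signals were background-corrected (normexp, offset 50) and loess-normalized within arrays, and spots and probes of a gene were averaged. Control spots and outlier-flagged spots were left out, saturated ones kept. A probe was tested where it lay above background on every array of at least 1 comparison, and genes measured on fewer than 2 arrays in any comparison were dropped. Ratios were turned to CoCl2 over control by the dyes in the strain and treatment fields. The 12 arrays of 6 h entered 1 fit (8 residual degrees of freedom), the 24 arrays another for 20 h, at a Benjamini-Hochberg adjusted p below 0.01. Gene names came from RefSeq (17568 of 22066 genes matched). Named genes were the 20 highest and 15 lowest, the 5 most changed in each list and direction, defining genes, regulators and markers, and the 10 that differed most each way from the mutant and from 20 h. Members and lists were chosen with earlier results of these data known. *cul-6*, *skr-3*, *skr-4*, *lys-7*, *nlp-29*, *nlp-31*, *fat-5*, *fat-7* and *hsp-6* were picked after their values had been seen. Scripts were tested on simulated data, and 20 alternatives were planned, among them the one-class SAM of the study's methods.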

Additional observations from a re-analysis of the deposited data

Results flagged for a closer look

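The results here were picked out because the ratio of CoCl2 over control in wild type at 6 h differed, by a limma test of the difference itself at an adjusted p below 0.01, from that in *pqm-1(ok485)* at 6 h or from that in wild type at 20 h. With 3 arrays per group, no test for single distant samples was run. Of the 937 genes called at 6 h in wild type, 157 differed from the mutant and 352 from 20 h. Of all genes tested, 1.69% differed from the mutant and 5.64% from 20 h. The called genes were chosen by wild-type values that enter both differences, so nothing is read from these counts.

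For the comparison with the mutant (wild type minus mutant, log2), the positive differences were 3.57 for *hrg-7*, 3.17 for *hrg-3*, 2.74 for *hrg-4*, 2.69 for *Y49G5A.1*, 2.51 for *hrg-1*, 2.11 for *F57G8.7*, 2.06 for *elo-2*, 2.06 for *hrg-2*, 1.96 for *gsto-1* and 1.75 for *folt-2*. Heme-responsive genes made up 5 of these 10, which were drawn from genes called in wild type, so nothing is read from that count. The negative ones were -2.35 for *F45D3.4*, -2.31 for *scl-2*, -2.04 for *cest-1.1*, -1.91 for *pqm-1*, -1.48 for *F09C8.1*, -1.44 for *pnp-1*, -1.35 for *lec-9*, -1.35 for *cyp-29A4*, -1.32 for *Y53F4B.45* and -1.29 for *acs-2*. The mutant carries a deletion in *pqm-1*, and whether its probes lie inside the deleted part was not tested.

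For the comparison with 20 h (6 h minus 20 h, log2), the positive differences were 4.21 for *oac-32*, 3.34 for *Y49G5A.1*, 3.26 for *K08D8.5*, 3.10 for *asp-12*, 3.04 for *oac-20*, 3.03 for *sysm-1*, 2.62 for *cld-1*, 2.58 for *acdh-1*, 2.57 for *folt-2* and 2.49 for *T05E12.6*. The negative ones were -2.54 for *acs-2*, -2.50 for *C25F9.11*, -2.15 for *Y53F4B.45*, -2.11 for *T02B11.4*, -1.98 for *clec-60*, -1.96 for *ins-37*, -1.89 for *F09C8.1*, -1.86 for *B0024.4*, -1.82 for *cyp-34A9* and -1.71 for *ins-19*. *Y49G5A.1* and *folt-2* were positive and *acs-2*, *F09C8.1* and *Y53F4B.45* negative in both comparisons, which share the wild-type arrays of 6 h.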

How the results depend on the processing

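The counts below are of genes that rose (567), genes that fell (370), list members called (315), genes differing from *pqm-1(ok485)* (373) and genes differing from 20 h (1305). With median centring in place of loess these were 204, 84, 115, 25 and 283. With the dyes of the source names each was 0, and *nlp-34* turned to -0.045; at an unadjusted p below 0.05, 622 genes were higher and 814 lower. The cause of these shifts was not tested. At an adjusted p below 0.05, 567 genes fell, 811 differed from the mutant and 2349 from 20 h. Without the normexp offset, 222 fell and 168 differed from the mutant. With slide as a random block 1064 rose, 831 fell and 555 list members were called. On the indirect path of the 9 other arrays the counts were 150, 30 and 82. One-class SAM gave 105 that fell and 206 list members. A dye term gave 625 genes differing from the mutant. Left out in turn, the replicates gave 390 to 437 genes that rose, 173 to 259 that fell, 197 to 232 list members, 192 to 246 differing from the mutant and 857 to 916 from 20 h. Fewer arrays were fitted in these. Apart from the replicate block, other alternatives moved these counts by under 1.5 times. Of 329 called genes singled out by the naming rule or picked later, 210 kept their call without each replicate in turn, and 144 kept it under median centring.

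With the replicate number as a block, 491 genes rose, 297 fell and 228 differed from the mutant. Same-numbered arrays of the wild-type and *pqm-1(ok485)* responses, the comparisons set against each other, had deviations that correlated at -0.21, -0.34 and -0.59, so the numbers were not taken as pairs. The wild-type response correlated at 0.38, 0.23 and 0.31 with untreated mutant against wild type, where each array correlated best with its own number, and at -0.42, -0.35 and -0.40 with treated mutant against wild type. Same-numbered arrays had the same dye orientation where they correlated above 0 and the opposite one where they correlated below 0. There was 1 exception of 18 (0.04). Dye and shared RNA cannot be told apart where comparisons have an RNA in common. The wild-type and mutant responses have none in common, and their negative values went with opposite dyes. Promoter motifs were not run, since no sequences were at hand. Of the called genes, 1 was not well above background in control on all arrays. The number of arrays limits the precision.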

Other observations

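Several gene groups were picked after their values had been seen, so their counts carry no test and are descriptions. Of 5 catechol O-methyltransferase-like *comt* genes, 4 rose, with *comt-4* at 4.13, 4.13 and 3.64, *comt-5* at a mean of 2.50 and *comt-3* at 2.14. Of 11 galectins, sugar-binding lectins, 5 rose and none fell, with *lec-11* at 2.15, 1.91 and 2.01. All 6 *K08D8* genes rose. Of 28 genes for the assembly and contents of peroxisomes, the organelles that shorten very long fatty acids, 14 fell and none rose (median log2 ratio -0.43), with *lonp-2* at -1.17.

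Of 7 genes of de novo purine synthesis 4 fell and none rose, among them *atic-1* at -0.73, -0.72 and -0.71, *pfas-1* at -0.75 and *F38B6.4* at -1.07. Of 10 genes of glycine cleavage and folate transport, 4 fell, with the glycine decarboxylase *gldc-1* at -0.77 and the folate transporter *folt-2* at -0.75. The ratio of *folt-2* was lower in the mutant at 6 h (mean -2.49) and at 20 h in wild type (-3.31) than in wild type at 6 h.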
